A study of Mus musculus with 8 samples.

Results

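Mouse liver taken 240 min after 1 injection of growth hormone (GH) was compared with liver taken at 90 min, to follow which early changes had been shut off and which changes began late. A gene entered the comparison when the authors' mean FPKM over its gene body reached 0.5 in either group. This held for 10935 of the 24197 genes in the deposited table, 10564 of them at 90 min and 10554 at 240 min. Zfp13 at 0.49976 and Nfatc2ip at 0.49981 FPKM lay just under the threshold, and Fign at 0.5003 and Bbs5 at 0.5005 FPKM just above it.

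All mice were males of the outbred CD-1 strain, 11 weeks old, whose pituitary had been removed at 7 weeks of age. Both groups compared had received recombinant rat GH intraperitoneally at 125 ng per g of body weight, 90 or 240 min before the liver was taken. A GH 30 min group and a group without GH (Hypox) served to place each change in time, and the labels describe the Hypox mice as untreated in one place and as given vehicle in another. Each group held 2 libraries, and per the file headers each library is a pool of 4 livers, so that p-values measure the spread between pools. No vehicle group taken at 90 or 240 min was analysed here, so that time after GH cannot be told apart from time of day or time after injection. Hypophysectomy removes the other pituitary hormones as well, a state that both groups shared.

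GH binds its receptor on hepatocytes and activates JAK2, a kinase, and through it the transcription factor STAT5b, which induces Igf1 and also inhibitors of the same pathway such as Cish and the Socs genes. Reads in exons come mostly from mature mRNA and those in introns mostly from unspliced transcripts, so that introns respond sooner when transcription changes and exons also carry the lifetime of the mRNA. In liver, folding of secretory proteins in the endoplasmic reticulum (ER), cholesterol synthesis, ribosome production and the acute phase response are each run by gene sets that tend to change together.

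The 90 min libraries held 32083366 and 15935303 mapped reads, and the 240 min libraries 25584732 and 21382154. Values are given per library as CPM, that is, reads relative to the mapped reads of the library after scaling, the deeper library of a group first. Between 25.0% and 26.6% of mapped reads were exonic and 14.9% to 17.7% intronic in the 8 libraries. The 9 hepatocyte marker genes summed to 28200 and 28300 CPM at 90 min and 23400 and 21600 CPM at 240 min, and no marker list of T and NK cells, B cells or platelets had a gene above the FPKM threshold. One Hypox library carries another library series number in its title than the other 7, and the 4 libraries of the comparison share theirs. In bulk tissue, fewer cells of a type and less RNA per cell cannot be told apart.

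Of 10543 genes tested for exonic reads, 353 rose and 308 fell from 90 to 240 min (limma, Benjamini-Hochberg adjusted p under 0.05), 123 and 96 of them by 2-fold or more. Over all 13171 genes with enough reads, 2.75% were called higher and 2.45% lower. Intronic reads changed in more genes, with 641 of 9653 higher and 662 lower, against 5.63% and 6.03% over all 12247 tested. The median absolute log2 fold change of the called genes was 0.832 for exons and 1.01 for introns, and over all genes in the comparison the median was 0.0055 and 0.0469. In all 661 exonic and 1303 intronic calls both 240 min libraries lay beyond both 90 min libraries, which also held for 53.3% and 58% of the genes tested. These counts rest on few libraries: without the shallower 90 min library the exonic calls fell to 52 higher and 45 lower, without the deeper 90 min library to 72 and 63, and without the shallower 240 min library to 68 and 100.

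Each called gene was placed by its fitted fold changes at 30 and 90 min against Hypox, with a limit of 1.5-fold. Among the genes that fell, 48 had been above Hypox at 90 min (early rise, shut off), 241 were within the limit at both 30 and 90 min (late fall), 7 were already below Hypox (continued fall) and 12 were in none of these. Among those that rose, 45 had been below Hypox at 90 min (early fall, reversed), 292 were within the limit at both times (late rise), 10 were already above it (continued rise) and 6 were in none. The 90 min libraries stand on both sides of this sorting, so a chance deviation at 90 min feeds both values, and the classes are a description. At 90 min against Hypox itself, 0.607% of all genes tested were called higher and 0.167% lower for exons, and 3.28% and 4.32% for introns. Of the 48 genes of the shut-off class 22 were called higher at 90 min against Hypox, and of the 45 reversed genes 4 were called lower (Fzd5, G0s2, Ppp1r3c and Zfp750).

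**Figure D1:**
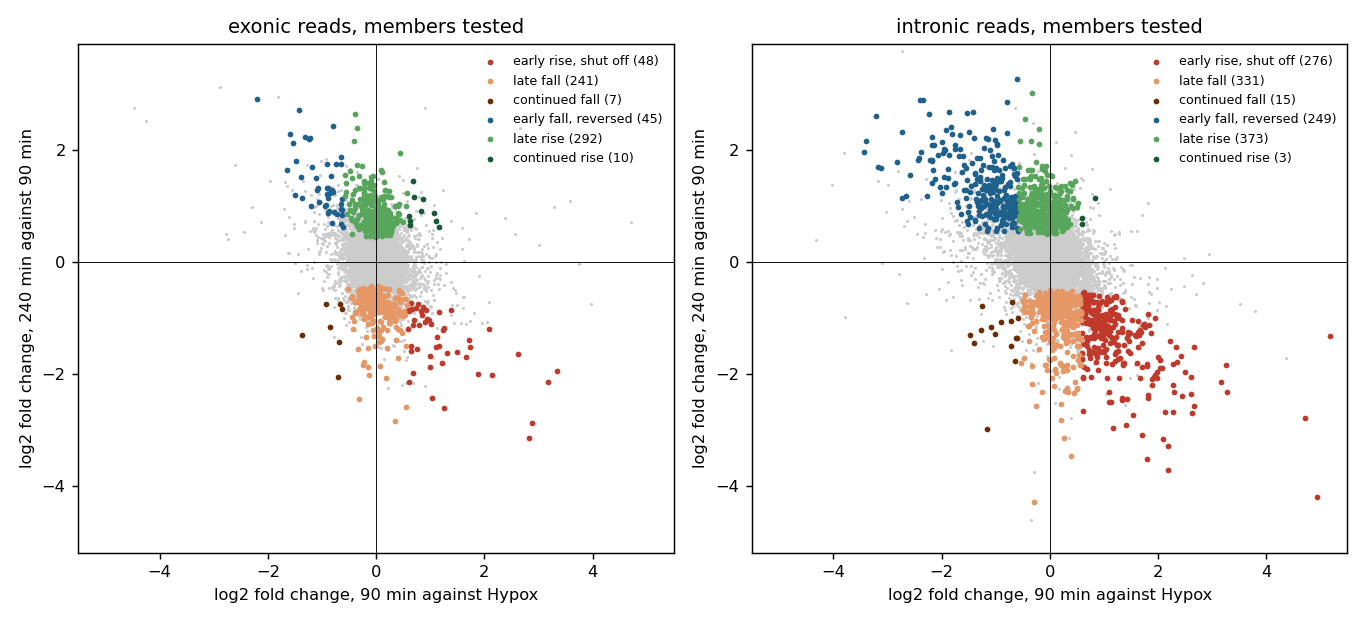
Log2 fold change from 90 to 240 min (vertical) against log2 fold change at 90 min over Hypox (horizontal), for exonic reads (left) and intronic reads (right), with a point for each gene tested. Coloured points have an adjusted p under 0.05 between 240 and 90 min and are coloured by kinetic class, with the number in brackets, and the intronic panel holds many more genes at lower right (276) and upper left (249) than the exonic one (48 and 45).

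Among early rises that were shut off by 240 min, Arid5a had the largest fall. Arid5a, an RNA-binding protein that stabilises cytokine mRNAs, gave 2.76 and 1.92 CPM in Hypox, 3.46 and 8.48 after 30 min, 16.7 and 17.1 after 90 min and then 2.04 and 1.64 after 240 min. Both 90 min libraries lay above the other 6, and the 240 min pair was back at or just below Hypox. The exonic log2 fold change from 90 to 240 min was -3.14 ± 0.34 with its standard error (adjusted p = 0.00233, 5.25e-05 to 0.0281). Each adjusted p is followed in this form by its range over the alternative settings, which include leaving out each library. Its introns ran the same way, from 16.6 and 10.6 to 0.918 and 0.906 CPM (-3.72 ± 0.32; adjusted p = 0.000163, 2.78e-05 to 0.00536). Arid5a lies at chr1:36364578-36380874 in build mm9.

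Socs1, Pim1 and Pim3, known to be induced through STAT factors, were in this class. Socs1, an inhibitor of JAK kinases, gave 0.460 and 0.566 CPM in Hypox, 0.846 and 2.01 after 30 min, 6.98 and 2.77 after 90 min and then 0.483 and 0.545 after 240 min. Its 240 min pair matched Hypox and lay below both 90 min libraries (-2.88 ± 0.45; adjusted p = 0.00902, 0.00489 to 0.0728). Pim3 gave 19.9 and 17.1 CPM in Hypox, 17.3 and 23.2 after 30 min, 44.2 and 43.5 after 90 min and then 15.9 and 22.1 after 240 min. It was about level at Hypox, 30 and 240 min and stood out only at 90 min (-1.22 ± 0.18; adjusted p = 0.00677, 0.00477 to 0.0559). Pim1 gave 16.95 and 10.8 CPM at 90 min and 3.53 and 2.54 CPM at 240 min, with Hypox at 7.87 and 9.93. The 240 min values were below the other 4 (-2.14 ± 0.33; adjusted p = 0.00822, 0.00223 to 0.0728). Cish, the STAT5 target that binds the GH receptor, gave 0.546 and 1.38 CPM in Hypox, 4.05 and 10.3 after 30 min, 15.7 and 14.9 after 90 min and then 9.62 and 8.59 after 240 min. It was above Hypox at 240 min by 3.23 (log2; adjusted p = 0.00236). Its drop from 90 min did not pass the test (-0.75 ± 0.42; adjusted p = 0.344, 0.0234 to 0.567).

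Myc, the growth-promoting transcription factor, gave 0.632 and 1.32 CPM in Hypox, 8.65 and 11.4 after 30 min, 11.3 and 7.38 after 90 min and then 1.596 and 2.45 after 240 min. All 4 libraries at 30 and 90 min were above all 4 at Hypox and 240 min (-2.15 ± 0.33; adjusted p = 0.00854, 0.00320 to 0.0753). Phlda1, a target of MAP kinase signalling, gave 9.05 and 11.6 CPM in Hypox, 60.2 and 83.0 after 30 min, 107 and 103 after 90 min and then 25.0 and 29.2 after 240 min. It fell after 90 min (-1.96 ± 0.17; adjusted p = 0.00101, 0.000110 to 0.0165). At 240 min it was still above Hypox by 1.39 (log2; adjusted p = 0.00192). Foxq1, a forkhead transcription factor, gave 18.9 and 21.95 CPM at 90 min and 3.898 and 3.54 CPM at 240 min. It fell to below its Hypox values of 12.6 and 7.70 (-2.43 ± 0.28; adjusted p = 0.00316, 0.000110 to 0.0370). The growth arrest gene Gadd45g gave 13.6 and 10.3 CPM at 90 min and 2.67 and 2.998 CPM at 240 min. It came back to near its Hypox values of 1.67 and 4.02 (-2.02 ± 0.34; adjusted p = 0.0116, 0.000792 to 0.0931). The zinc finger factor Klf6 gave 8.38 and 10.3 CPM at 90 min and 4.46 and 3.54 CPM at 240 min. The drop was smaller but the pairs did not overlap (-1.20 ± 0.18; adjusted p = 0.00677, 0.00685 to 0.0682).

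Of the 48 genes in this class, 33 were within 1.5-fold of Hypox at 240 min, 11 were further below and 4 further above (Abhd17b, Myc, Phlda1 and Sybu). The class medians were a log2 fold change of 0.998 at 90 min against Hypox and -1.37 from 90 to 240 min. Introns could be tested in 44 of them and were lower at 240 min in 31, with none higher. Of the 48, 3 are listed as non-coding RNAs, Gm15941, Map2k3os and Mir21a. Map2k3os lies on the strand opposite Map2k3, and no source used here says which strand was counted. Gm15941 gave 1.495 and 1.17 CPM at 90 min and 0.149 and 0.409 CPM at 240 min. Both late values were the lower (-2.00 ± 0.40; adjusted p = 0.0220, 0.0115 to 0.138). Mir21a gave 1.71 and 3.01 CPM at 90 min and 0.891 and 0.4997 CPM at 240 min. Later libraries lay below both earlier ones (-1.62 ± 0.35; adjusted p = 0.0280, 0.0264 to 0.191). Its hairpin at chr11:86397569-86397660 (mm9) lies within the span of Vmp1 at chr11:86397367-86497324, a gene of the same class, and both were named after their values were seen. Reads of the pair cannot be told apart. These libraries do not measure mature microRNA. Fzd4, a receptor for Wnt ligands that was picked out after its values were seen, gave 9.71 and 9.65 CPM in Hypox, 18.98 and 19.8 after 30 min, 20.1 and 18.5 after 90 min and then 5.01 and 5.36 after 240 min. Both 30 min libraries had already reached the 90 min level, and both 240 min libraries were below Hypox (-1.88 ± 0.12; adjusted p = 0.000118, 8.77e-05 to 0.00406).

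**Figure D2:**
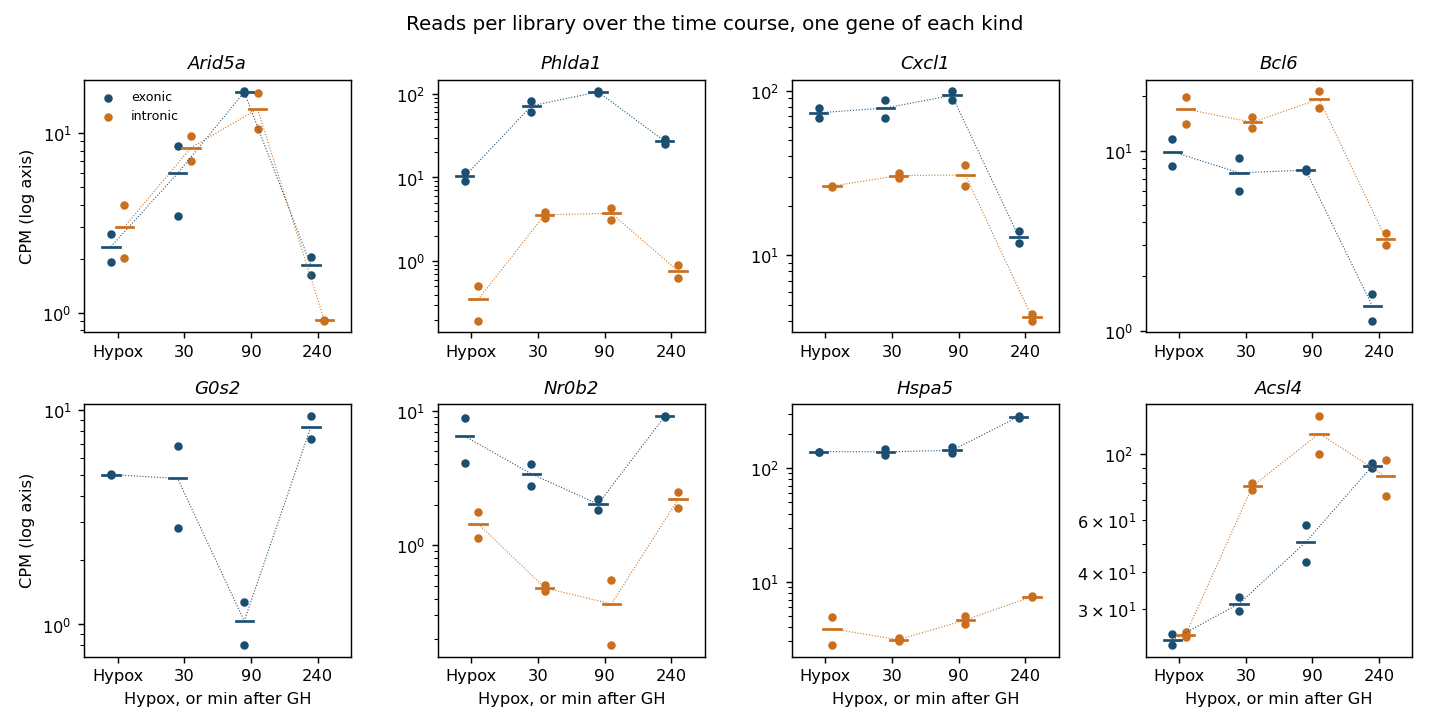
Exonic (blue) and intronic (orange) CPM on a log axis for 8 genes in Hypox and at 30, 90 and 240 min, with a point for each library, a bar for the mean of the pair and dotted lines joining the means. Arid5a and Phlda1 peak at 90 min, Cxcl1 and Bcl6 are level until 90 min and low at 240 min, G0s2 and Nr0b2 dip at 90 min, Hspa5 rises only at 240 min, and the exons of Acsl4 go on rising after its introns have peaked. Introns of G0s2 were not tested and are not drawn.

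Late falls formed the largest class of lower genes, 241 with a median log2 fold change of -0.76. At 240 min 179 of them were at least 1.5-fold below Hypox. A gene entered this class only when within 1.5-fold of Hypox at 30 and 90 min. Returns from a larger early rise were thus left out by the rule. The chemokine gene Cxcl1, which attracts neutrophils, gave 78.8 and 67.7 CPM in Hypox, 68.6 and 88.3 after 30 min, 99.2 and 87.8 after 90 min and then 11.9 and 14.04 after 240 min. The 6 earlier libraries all lay between 67.7 and 99.2 CPM and the 240 min pair lay far below them (-2.84 ± 0.15; adjusted p = 3.13e-05, 7.58e-06 to 0.00182). Its introns fell alike, from 35.2 and 26.2 to 4 and 4.40 CPM (-2.83 ± 0.17). Socs3, which blocks signalling by interleukin 6 and GH, gave 22.1 and 27.4 CPM in Hypox, 24.7 and 35.3 after 30 min, 50.1 and 26.0 after 90 min and then 5.49 and 6.32 after 240 min. It was lower at 240 min than in any earlier library (-2.60 ± 0.27; adjusted p = 0.00204, 0.000727 to 0.0202). In Socs3 the deeper 90 min library, at 50.1 CPM, lay above all Hypox and 30 min libraries. Its fitted change at 90 min stayed within the 1.5-fold limit. Bcl6, a transcriptional repressor that competes with STAT5 at liver genes, gave 11.6 and 8.17 CPM in Hypox, 5.996 and 9.07 after 30 min, 7.88 and 7.69 after 90 min and then 1.596 and 1.14 after 240 min. Its introns gave 17.3 and 21.4 CPM at 90 min and 3.01 and 3.49 CPM at 240 min. Neither 240 min library reached a 90 min one (-2.53 ± 0.20; adjusted p = 0.000118, 5.30e-05 to 0.00379). Exons changed by -2.45 ± 0.24 (adjusted p = 0.00167, 0.000594 to 0.0246), and both readouts separated the 240 min libraries from the 90 min ones.

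The 250 bases before the start sites of Bcl6 and Socs3 are shown because both genes are known STAT targets, both fell late and both windows hold the letters TTCNNNGAA of a STAT site, a palindrome that reads alike on both strands. Sequences are from RefSeq (GRCm38.p6), 5′ to 3′ on the strand of the gene, with matches in capitals. The Bcl6 window is chr16:23981284-23981533 and the Socs3 window is chr11:117969367-117969616, both on the minus strand.
Bcl6: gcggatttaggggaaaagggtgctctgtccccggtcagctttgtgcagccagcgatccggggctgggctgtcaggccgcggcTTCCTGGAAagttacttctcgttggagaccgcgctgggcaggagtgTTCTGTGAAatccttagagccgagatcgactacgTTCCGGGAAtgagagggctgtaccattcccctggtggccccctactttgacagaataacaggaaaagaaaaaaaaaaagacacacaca
Socs3: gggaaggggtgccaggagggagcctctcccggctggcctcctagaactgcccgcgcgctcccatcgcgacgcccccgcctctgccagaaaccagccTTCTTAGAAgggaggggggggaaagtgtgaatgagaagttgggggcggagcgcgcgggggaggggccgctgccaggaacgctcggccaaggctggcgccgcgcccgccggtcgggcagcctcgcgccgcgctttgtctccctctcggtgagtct
The Bcl6 window shown holds 3 matches, which begin 168, 122 and 88 bases before the start site. The Socs3 window holds 1, which begins 154 bases before its start site. For a gene with several start sites, the window with the most matches was shown. Another Bcl6 start site has a match that begins 118 bases before it. No match overlaps another or either of the other motifs searched. Of 27025 mouse genes with a window, read from 250 bases before to 50 after each start site, 9.55% held a match, and so did 8.4% of the 7920 genes of the comparison that had a window. The share was 11.8% in the shut-off class (4 of 34), 9.71% in late falls (17 of 175), 16.7% in reversed falls (4 of 24) and 9.61% in late rises (22 of 229). In the list of GH and STAT5 targets it was 29.4% (5 of 17, Bcl6, Cish, Igfals, Prlr and Socs3). A match is a string of letters and not a measured site.

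Upp2, a uridine phosphorylase, gave 30.6 and 50.6 CPM in Hypox, 43.3 and 41.1 after 30 min, 34.8 and 37.3 after 90 min and then 14.1 and 5.497 after 240 min. Without overlap, the late pair was the lower (-2.02 ± 0.35; adjusted p = 0.0132, 0.00384 to 0.0918). Its introns gave 43.5 and 77.6 CPM in Hypox, 28.5 and 48.9 after 30 min, 24.4 and 23.8 after 90 min and then 10.4 and 10.4 after 240 min, lower in each later pair from 90 min on.

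Other late falls included Junb, Fosl2, Irf1 and Stat5b. Junb, a subunit of the AP-1 transcription factor, gave 47.3 and 31.7 CPM at 90 min and 10.8 and 10.04 CPM at 240 min. Its Hypox values of 40.3 and 45.7 were as high as those at 90 min, and only the 240 min pair was low (-1.88 ± 0.17; adjusted p = 0.00101, 0.000708 to 0.0167). Fosl2, another AP-1 subunit, gave 18.2 and 21.4 CPM at 90 min and 6.65 and 7.22 CPM at 240 min. Lower levels marked both 240 min libraries (-1.50 ± 0.18; adjusted p = 0.00316, 0.00121 to 0.0394). Its introns fell from 17.01 and 17.1 to 4.62 and 4.803 CPM (-1.83 ± 0.18; adjusted p = 0.000390, 5.84e-05 to 0.00717). Irf1, an interferon-induced transcription factor, gave 39.1 and 21.03 CPM at 90 min and 8.91 and 8.50 CPM at 240 min. Each late library was under both earlier ones (-1.71 ± 0.26; adjusted p = 0.00677, 0.00477 to 0.0498). In CPM, though not in log2, its 90 min libraries differed more from each other than the lower of them did from 240 min. Stat5b itself fell, with 25.4 and 24.5 CPM at 90 min and 17.6 and 14.1 CPM at 240 min. The decrease separated the pairs (-0.66 ± 0.14; adjusted p = 0.0266, 0.0208 to 0.137). So did its introns, from 45.4 and 44.6 to 20 and 28.7 CPM (-0.91 ± 0.20). Egr1, Fos and Jun, classical immediate early factors, did not pass the test after 90 min. The 30 min peak of Egr1 rests on the deeper library, at 50.4 CPM. The shallower one, at 27.8 CPM, lay below a Hypox library at 28.5 CPM. Egr1 gave 15.3 and 28.5 CPM in Hypox, 50.4 and 27.8 after 30 min, 17.5 and 8.43 after 90 min and then 6.61 and 3.41 after 240 min, with its peak at 30 min (-1.34 ± 0.43; adjusted p = 0.101, 0.0648 to 0.427). Fos gave 3.28 and 5.97 CPM in Hypox, 6.14 and 1.75 after 30 min, 1.71 and 1.41 after 90 min and then 1.23 and 0.863 after 240 min (-0.55 ± 0.48; adjusted p = 0.557, 0.335 to 0.827), and Jun changed by -0.51 ± 0.23 (adjusted p = 0.226, 0.0579 to 0.729). Of the list of 18 immediate early and AP-1 genes, whatever their class, 5 fell (Junb, Fosl2 and Btg2 as late falls, Klf6 and Myc after an early rise) and none rose, with a median log2 fold change of -0.383. Of 17 targets of the inflammatory factor NF-kB 3 fell (Cxcl1 as a late fall, Il1b and Icam1 in no named class) and none rose, with a median of -0.574. Over all genes in the comparison, 3.35% rose and 2.92% fell.

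Il1b, which encodes the cytokine interleukin 1 beta, gave 5.37 and 5.47 CPM in Hypox, 2.06 and 2.39 after 30 min, 7.85 and 5.17 after 90 min and then 1.41 and 1.14 after 240 min. It was low at 30 min, back up at 90 min and lowest at 240 min, a course in none of the named classes (-2.24 ± 0.22; adjusted p = 0.00167, 0.000841 to 0.0220). Rassf4, Nlrp3, a sensor of the inflammasome, and Csf3r, the receptor for granulocyte colony-stimulating factor, were likewise low at 30 min, higher at 90 min and low at 240 min. Csf3r, a neutrophil marker, gave 3.02 and 3.77 CPM in Hypox, 1.32 and 2.44 after 30 min, 6.04 and 3.87 after 90 min and then 1.82 and 1.73 after 240 min. This was a fall without overlap (-1.40 ± 0.30; adjusted p = 0.0267, 0.0146 to 0.163). Beside these, the neutrophil marker list summed to 17.5 and 12.3 CPM at 90 min and 7.04 CPM in each 240 min library, with 1 of 4 tested genes lower and none higher. The list of Kupffer cells and macrophages summed to 119 and 91.4 CPM at 90 min and 98.9 and 73.6 CPM at 240 min, with none of 13 genes called by limma (0 higher and 3 lower at an unadjusted p under 0.05, and none by limma-voom). The part of these cells in the falls of inflammatory genes was not tested. Gadd45a, a stress-induced growth arrest gene, gave 7.41 and 7.04 CPM in Hypox, 10.2 and 13.04 after 30 min, 13.4 and 8.43 after 90 min and then 1.93 and 2.73 after 240 min. Both late values were the lower (-2.16 ± 0.24; adjusted p = 0.00233, 0.00104 to 0.0249). Mid1, a ubiquitin ligase bound to microtubules, gave introns of 50.1 and 49.8 CPM in Hypox, 29.1 and 69.4 after 30 min, 81.0 and 62.7 after 90 min and then 13.8 and 15.9 after 240 min (-2.26 ± 0.31; adjusted p = 0.00151, 3.38e-05 to 0.0244) and exons that changed by -1.50 ± 0.38 (adjusted p = 0.0491, 0.0102 to 0.280). Adrb3, an adrenergic receptor, gave 6.29 and 6.64 CPM at 90 min and 1.63 and 1.09 CPM at 240 min. Later libraries lay below both earlier ones (-2.19 ± 0.44; adjusted p = 0.0222, 0.00158 to 0.125).

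In some late falls the introns had dropped before the exons did. Of 226 late falls with tested introns, 60 had introns already called lower at 90 min against Hypox and 2 called higher (Aff1 and Trpm7). From 90 to 240 min introns fell in 59 of the 226 and rose in 14. Ppargc1a, the coactivator PGC-1 alpha that drives gluconeogenic and mitochondrial genes, gave exonic values of 3.85 and 10.47 CPM in Hypox, 9.53 and 7.10 after 30 min, 7.04 and 7.50 after 90 min and then 1.71 and 1.59 after 240 min. Its introns gave 11.4 and 19.3 CPM in Hypox, 11.1 and 6.79 after 30 min, 4.03 and 2.93 after 90 min and then 3.63 and 4.71 after 240 min. Intronic reads were down at 90 min (-2.08 ± 0.30 against Hypox; adjusted p = 0.00231) and near level after it (0.26 ± 0.30). Exons fell after 90 min (-2.08 ± 0.36; adjusted p = 0.0122, 0.000684 to 0.0873). The change in exons minus that in introns from 90 to 240 min was -2.34 ± 0.26 (log2; adjusted p = 4.39e-05, 5.45e-05 to 0.00689).

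The sterol exporter pair Abcg5 and Abcg8, which send cholesterol into bile, also had introns called lower at 90 min. Abcg8 exons gave 21.4 and 24.4 CPM in Hypox, 28.7 and 25.9 after 30 min, 19.3 and 29.6 after 90 min and then 7.05 and 5.95 after 240 min. The 6 earlier libraries all lay above the 240 min pair (-1.87 ± 0.19; adjusted p = 0.00167, 0.00147 to 0.0203). Its introns gave 3.60 and 6.24 CPM in Hypox, 1.81 and 2.09 after 30 min, 0.886 and 1.43 after 90 min and then 1.29 and 1.31 after 240 min. They were already low at 90 min (-1.98 against Hypox; adjusted p = 0.00341). Abcg5 introns went from 8.49 and 10.9 CPM in Hypox to 2.14 and 1.61 at 90 min (-2.31; adjusted p = 0.000313) and 2.94 and 3.13 at 240 min. Abcg5 exons gave 13.9 and 23.4 CPM at 90 min and 5.64 and 6.996 CPM at 240 min. Neither 240 min library reached a 90 min one (-1.51 ± 0.22; adjusted p = 0.00617, 0.00555 to 0.0434). The exonic minus intronic change was -2.18 ± 0.29 (adjusted p = 0.000232, 0.000127 to 0.0153). The pair are neighbours that share a promoter region. Krt23, a keratin, had introns at 3.01 and 6.46 CPM in Hypox and 0.580 and 0.537 CPM at 90 min. Its exons went from 5.51 and 6.15 CPM at 90 min down to 1.67 and 1.45 at 240 min (-1.84 ± 0.26; adjusted p = 0.00606, 0.00213 to 0.0559). Nr1i3, the xenobiotic receptor CAR, gave exons of 45.6 and 30.8 CPM at 90 min and 22.1 and 14.6 CPM at 240 min. Without overlap, the late pair was the lower (-1.06 ± 0.22; adjusted p = 0.0239, 0.0156 to 0.150). Its introns gave 38.0 and 36.1 CPM in Hypox, 40.3 and 25.3 after 30 min, 20.7 and 14.1 after 90 min and then 12.6 and 10.7 after 240 min.

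The 7 continued falls included 4931408D14Rik, Dixdc1, Fam13a, Glt1d1, Ppp1r3g and Rnf152. In exons 1 of the 7 was called lower at 90 min against Hypox. Introns could be tested in 6 of the 7. In all of these they were called lower at 90 min against Hypox. In none were they called from 90 to 240 min. Fam13a exons gave 9.20 and 16.6 CPM in Hypox, 14.97 and 12.1 after 30 min, 7.98 and 7.07 after 90 min and then 1.596 and 1.86 after 240 min. Lower levels marked both 240 min libraries (-2.06 ± 0.24; adjusted p = 0.00316, 0.000792 to 0.0359). Introns of the gene gave 14.4 and 32.2 CPM in Hypox, 11.6 and 6.11 after 30 min, 3.21 and 2.03 after 90 min and then 3.82 and 6.12 after 240 min. Exons were lowest at 240 min while introns were lowest at 90 min, and the difference between the readouts was -2.96 ± 0.24 (adjusted p = 2.97e-06, 3.55e-06 to 0.00237). Ppp1r3g, which targets a phosphatase to glycogen, gave 3.65 and 4.78 CPM in Hypox, 4.75 and 2.23 after 30 min, 1.71 and 1.41 after 90 min and then 0.557 and 0.591 after 240 min. Each late library was under both earlier ones (-1.30 ± 0.32; adjusted p = 0.0463, 0.0174 to 0.198). With a limit of 2-fold this class held 1 gene, and it held 4 when libraries were scaled by their totals alone.

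Early falls that were reversed included G0s2 and Nr0b2. G0s2, which inhibits the lipase ATGL, gave 4.97 and 5.06 CPM in Hypox, 6.81 and 2.81 after 30 min, 1.28 and 0.799 after 90 min and then 9.43 and 7.36 after 240 min. Both 90 min libraries were the lowest of the 8 and both 240 min libraries the highest (2.92 ± 0.35; adjusted p = 0.00326, 0.000408 to 0.0370). Nr0b2, the nuclear receptor SHP that represses bile acid synthesis, gave 8.88 and 4.12 CPM in Hypox, 4.05 and 2.76 after 30 min, 1.84 and 2.21 after 90 min and then 9.06 and 9.22 after 240 min. Both 240 min values were the higher (2.13 ± 0.31; adjusted p = 0.00636, 0.000563 to 0.0557). Its introns gave 0.550 and 0.179 CPM at 90 min and 2.50 and 1.90 CPM at 240 min. The later pair lay above the earlier one (2.42 ± 0.41; adjusted p = 0.00426, 0.00254 to 0.0486). Both readouts ended above all their Hypox values, which were 1.76 and 1.13 CPM in introns. Id1, an inhibitor of helix-loop-helix factors and a target of BMP signalling, gave 4.34 and 2.52 CPM in Hypox, 3.24 and 1.43 after 30 min, 1.84 and 0.861 after 90 min and then 7.95 and 5.09 after 240 min. Neither 90 min library reached a 240 min one (2.24 ± 0.43; adjusted p = 0.0190, 0.00834 to 0.135). Per1, a component of the circadian clock, gave 12.4 and 10.8 CPM in Hypox, 10.9 and 6.26 after 30 min, 5.61 and 5.29 after 90 min and then 11.7 and 16.1 after 240 min. Without overlap, the 240 min pair was the higher (1.32 ± 0.24; adjusted p = 0.0155, 0.00585 to 0.102). Bhlhe41, a repressor in the clock, gave 3.85 and 3.40 CPM in Hypox, 1.47 and 2.33 after 30 min, 1.93 and 1.48 after 90 min and then 3.45 and 3.86 after 240 min. With no group matched for time of day, the courses of Per1 and Bhlhe41 cannot be told apart from a daily rhythm.

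Some reversed genes lay above Hypox at 240 min. Vasn, which encodes vasorin, gave 3.62 and 3.05 CPM in Hypox, 2.47 and 1.64 after 30 min, 2.12 and 1.78 after 90 min and then 6.27 and 7.27 after 240 min. Levels were higher in both 240 min libraries (1.75 ± 0.22; adjusted p = 0.00410, 0.00246 to 0.0434). Sqle, the squalene epoxidase of cholesterol synthesis, gave 5.66 and 8.08 CPM in Hypox, 7.95 and 10.7 after 30 min, 5.76 and 3.14 after 90 min and then 14 and 18.2 after 240 min. Each 240 min library exceeded both earlier ones (1.88 ± 0.28; adjusted p = 0.00677, 0.00330 to 0.0521). Insig1, which holds back the activation of SREBP factors, gave 124.7 and 119 CPM in Hypox, 157 and 115 after 30 min, 79.9 and 62.7 after 90 min and then 123 and 140.7 after 240 min. It ended close to its Hypox values (0.90 ± 0.17; adjusted p = 0.0160, 0.0102 to 0.132). Mfsd2a, a lysophosphatidylcholine transporter, gave 0.249 and 0.246 CPM at 90 min and 1.04 and 2.45 CPM at 240 min. The increase separated the pairs (2.30 ± 0.41; adjusted p = 0.0139, 0.0100 to 0.0847). Few reads stand behind these values. Of the 45 genes 32 ended within 1.5-fold of Hypox, 13 above it and none below. By the test, 4 of the 45 were called at 240 min against Hypox. Introns were tested in 32 and were higher at 240 min in 25, and 13 had introns called lower at 90 min.

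Late rises were the largest class of all, with 292 genes and a median log2 fold change of 0.783, and held all 18 exonic calls of the ER list. Of 34 genes of the list of ER folding, ER-associated degradation and the secretory pathway, 18 rose and none fell in exons, with a median of 0.588. In introns 19 rose, and 1, Xbp1, fell, with a median of 0.933. The exonic count ranged from 5 to 17 and the intronic count from 4 to 23 when a library was left out, with none called lower in exons. Hspa5, the ER chaperone BiP, gave 140.2 and 140.4 CPM in Hypox, 130.4 and 148 after 30 min, 135 and 152 after 90 min and then 279 and 289 after 240 min. The 6 libraries up to 90 min spanned 130.4 to 152 CPM, and both 240 min libraries were well above them (0.99 ± 0.12; adjusted p = 0.00316, 0.00229 to 0.0401). Creld2, an ER-resident protein induced when folding is strained, gave 4.45 and 3.77 CPM in Hypox, 4.89 and 4.35 after 30 min, 4.39 and 4.49 after 90 min and then 11.95 and 16.04 after 240 min. This was a rise without overlap (1.62 ± 0.18; adjusted p = 0.00233, 0.00189 to 0.0281). Both genes were level to 90 min and high at 240 min alone.

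The 250 bases before the start sites of Hspa5 (chr2:34771840-34772089) and Creld2 (chr15:88819396-88819645) are shown since they carry the ER stress element, the letters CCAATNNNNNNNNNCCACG bound by ATF6 with NF-Y. Both windows are from RefSeq (GRCm38.p6) and on the plus strand, 5′ to 3′, with the element in capitals. In Creld2 the element lies on the other strand and is seen as its reverse complement.
Hspa5: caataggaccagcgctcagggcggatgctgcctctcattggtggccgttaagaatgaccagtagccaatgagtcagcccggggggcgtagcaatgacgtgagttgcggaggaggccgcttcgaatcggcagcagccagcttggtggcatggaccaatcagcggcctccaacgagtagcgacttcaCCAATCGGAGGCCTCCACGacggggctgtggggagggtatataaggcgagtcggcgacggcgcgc
Creld2: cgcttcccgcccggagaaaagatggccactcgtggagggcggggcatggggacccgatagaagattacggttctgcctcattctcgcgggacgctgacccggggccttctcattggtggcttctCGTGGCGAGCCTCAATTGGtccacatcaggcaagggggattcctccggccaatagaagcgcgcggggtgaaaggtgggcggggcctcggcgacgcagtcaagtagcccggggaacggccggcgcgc
The element begins 65 bases before the start site in Hspa5, and its match in Creld2 begins 126 bases before it. Read as the motif, the matches are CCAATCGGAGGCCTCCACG in Hspa5, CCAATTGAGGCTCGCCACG in Creld2, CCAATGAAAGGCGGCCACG in Pdia6 and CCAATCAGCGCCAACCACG in Dnajc3. Searched on both strands, it was found in 37 of 27025 genes with a window (0.137%) and in 14 of 7920 genes of the comparison (0.177%). Late rises held 4 of the matches in 229 genes with a window (1.75%, the 4 genes just named), and none of the other exonic classes held any. In the list of ER genes 8 of 26 with a window matched (30.8%), and of these Calr, Canx, Hsp90b1 and Syvn1 did not pass the exonic test. Their exonic log2 fold changes were 0.40, 0.11, 0.41 and 0.70, against 0.58 for Pdia6 and 0.69 for Dnajc3, genes named after their values were seen.

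Dnajb9, an ER co-chaperone, gave 24.6 and 14.8 CPM in Hypox, 16.4 and 15.3 after 30 min, 19.4 and 21.2 after 90 min and then 63.3 and 64.0 after 240 min. Both 240 min values were the higher (1.65 ± 0.19; adjusted p = 0.00316, 0.000290 to 0.0359). Manf, a secreted protein induced by ER stress, gave 12.6 and 10.2 CPM in Hypox, 11.7 and 13.9 after 30 min, 10.8 and 14.7 after 90 min and then 31.4 and 37.5 after 240 min. The later pair lay above the earlier one (1.44 ± 0.18; adjusted p = 0.00382, 0.00241 to 0.0374). In both, all 6 earlier libraries lay below the 240 min pair. Arfgap3, which controls coat proteins of the Golgi, gave exons of 2.96 and 3.26 CPM at 90 min and 8.46 and 12.99 CPM at 240 min. Neither 90 min library reached a 240 min one (1.72 ± 0.23; adjusted p = 0.00482, 0.00326 to 0.0428). Introns of Arfgap3 gave 5.31 and 4.84 CPM at 90 min and 24.9 and 21.5 CPM at 240 min. Without overlap, the 240 min pair was the higher (2.17 ± 0.29; adjusted p = 0.00122, 8.01e-05 to 0.0214). Gmppb, which makes GDP-mannose for glycosylation, gave 2.65 and 2.89 CPM at 90 min and 7.31 and 12.3 CPM at 240 min. Levels were higher in both 240 min libraries (1.74 ± 0.25; adjusted p = 0.00619, 0.00330 to 0.0502). Fkbp14, an ER prolyl isomerase, gave introns of 0.458 and 1.02 CPM at 90 min and 3.74 and 4.26 CPM at 240 min. Each 240 min library exceeded both earlier ones (2.38 ± 0.37; adjusted p = 0.00285, 0.00102 to 0.0356). Xbp1, whose spliced form drives ER genes and which was named after its values were seen, peaked earlier in introns but not in exons. Its introns gave 16.2 and 15.8 CPM in Hypox, 27.6 and 36.5 after 30 min, 42.6 and 31.6 after 90 min and then 16.99 and 18.4 after 240 min. They fell from 90 to 240 min (-1.05 ± 0.19; adjusted p = 0.00512, 0.00239 to 0.0540). Exons of Xbp1 gave 102 and 58.8 CPM in Hypox, 61.2 and 113 after 30 min, 167 and 167 after 90 min and then 193 and 144 after 240 min, and their last change did not pass the test (-0.0038 ± 0.29; adjusted p = 0.997, 0.792 to 1).

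Genes that charge tRNAs and start translation were also among those that rose. For comparison, 3.35% of all genes in the comparison rose and 2.92% fell in exons. Of 20 ATF4 targets and tRNA synthetases 7 rose and none fell (Nars, Tars, Yars, Wars, Iars, Lars and Trib3), with a median of 0.377. Nars, which charges asparagine tRNA, gave 20.6 and 18.6 CPM at 90 min and 35.4 and 41.7 CPM at 240 min. The increase separated the pairs (0.97 ± 0.12; adjusted p = 0.00409, 0.00296 to 0.0438). Of 20 translation initiation factors 7 rose and 1, the inhibitor Eif4ebp2, fell, with a median of 0.356. Eif4a1, the initiation helicase, gave 71.7 and 69.6 CPM at 90 min and 102 and 96.2 CPM at 240 min. This was a rise without overlap (0.49 ± 0.11; adjusted p = 0.0288, 0.0278 to 0.171). None of 51 cytoplasmic ribosomal protein genes was called in either direction by limma or limma-voom, and 0 had an unadjusted p under 0.05, with a median of 0.0864. Of 31 proteasome genes 2 rose (Psmc5 and Psmd6), and all 31 fold changes were positive with a median of 0.271. Among 22 cytosolic chaperones 1 rose, a count near the share over all genes. This gene, Cct3, gave 15.3 and 16.4 CPM at 90 min and 24.5 and 22.8 CPM at 240 min. Both 240 min values were the higher (0.58 ± 0.12; adjusted p = 0.0227, 0.0212 to 0.138).

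Some cholesterol synthesis genes rose as well. Of 22 genes of that pathway and SREBP2 targets 5 rose and none fell in exons (Sqle, Insig1, Cyp51, Idi1 and Fdps), with a median of 0.463. In introns 8 rose and 1, Stard4, fell, with a median of 0.905. Leaving out a library gave 0 to 9 intronic rises and medians from 0.26 to 1.35. Cyp51, the lanosterol demethylase, gave 18.7 and 21.03 CPM in Hypox, 18.4 and 22.2 after 30 min, 20.4 and 13.5 after 90 min and then 34.1 and 30.4 after 240 min. The later pair lay above the earlier one (0.95 ± 0.19; adjusted p = 0.0198, 0.0124 to 0.124). Idi1, the isomerase of isopentenyl diphosphate, gave 19.8 and 28.7 CPM in Hypox, 28.8 and 48.0 after 30 min, 27.9 and 15.3 after 90 min and then 60.03 and 45.4 after 240 min. Neither 90 min library reached a 240 min one (1.33 ± 0.31; adjusted p = 0.0362, 0.0195 to 0.220). In both the shallower 90 min library was the lower of its pair, and the exonic count of the list ranged from 0 to 6 when a library was left out. The sterol regulatory element TCACNCCAC, searched on both strands, was in 1.44% of the genes with a window and in 0 of the 14 such genes of this list. At so low a share, a count of 0 in 14 genes cannot set the list apart from all genes. The rest of its 22 genes had no window and were not searched. The late rises also held Errfi1, a feedback inhibitor of the EGF receptor. Errfi1 gave 122 and 100.3 CPM in Hypox, 96.4 and 106 after 30 min, 75.1 and 73.7 after 90 min and then 257 and 187 after 240 min. Its 90 min pair lay below both Hypox libraries, but within the 1.5-fold limit of the classes. Without overlap, the 240 min pair was the higher (1.56 ± 0.16; adjusted p = 0.00167, 0.00101 to 0.0254). Cyp4a12b, a male-biased cytochrome P450, gave 4.71 and 5.31 CPM in Hypox, 5.81 and 9.65 after 30 min, 7.04 and 6.70 after 90 min and then 23.8 and 30.1 after 240 min. Levels were higher in both 240 min libraries (1.95 ± 0.22; adjusted p = 0.00261, 0.000422 to 0.0285). Its reads may be shared with its near copy Cyp4a12a. Trim24, which is higher in female liver, gave 13.9 and 13.8 CPM at 90 min and 18.3 and 25.4 CPM at 240 min. Each 240 min library exceeded both earlier ones (0.64 ± 0.15; adjusted p = 0.0425, 0.0143 to 0.183).

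Marker genes of bile duct cells rose from low levels. Krt19, a keratin of these cells, gave 0.125 and 0.246 CPM at 90 min and 0.817 and 2.27 CPM at 240 min. The increase separated the pairs (2.40 ± 0.51; adjusted p = 0.0264, 0.0191 to 0.152). Krt7, a second one, gave 0.187 and 0.0615 CPM at 90 min and 0.743 and 0.999 CPM at 240 min. This was a rise without overlap (2.16 ± 0.49; adjusted p = 0.0341, 0.0169 to 0.186). Few reads stand behind the values of both keratins. Over the alternative settings the log2 fold change ranged from 1.04 to 3.09 in Krt19 and from 0.73 to 2.57 in Krt7. The Krt19 call was lost with limma-voom. Spp1, which encodes osteopontin, gave 5.36 and 3.75 CPM at 90 min and 10.51 and 14.8 CPM at 240 min. Both 240 min values were the higher (1.46 ± 0.27; adjusted p = 0.0152, 0.00949 to 0.119). These 3 were the called genes among 5 cholangiocyte markers tested. The cholangiocyte list as a whole summed to 8.57 and 6.77 CPM at 90 min and 15 and 25.1 CPM at 240 min, and the share of these cells in the tissue was not tested. Tspan8, a tetraspanin, had the same pattern with 0.156 and 0.0615 CPM at 90 min and 0.854 and 1.59 CPM at 240 min. These values too rest on few reads. The later pair lay above the earlier one (2.64 ± 0.51; adjusted p = 0.0191, 0.0116 to 0.124).

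The 10 continued rises were Acsl4, Alas1, Ddc, Fam3c, Gnl3, Grm8, Gtpbp4, Nolc1, Nop58 and Prpf6, and 4 of them, Acsl4, Fam3c, Gtpbp4 and Nop58, were called higher at 90 min against Hypox. Acsl4, which activates arachidonic acid, gave exons of 22.7 and 24.7 CPM in Hypox, 29.6 and 33.03 after 30 min, 43.5 and 57.6 after 90 min and then 89.6 and 93.4 after 240 min. Each later pair was above the one before (0.87 ± 0.14; adjusted p = 0.0103, 0.00803 to 0.0794). Its introns gave 24.2 and 25.1 CPM in Hypox, 80.1 and 75.9 after 30 min, 100.1 and 135 after 90 min and then 72.5 and 95.8 after 240 min, with the peak at 90 min. The exonic minus intronic change from 90 to 240 min was 1.35 ± 0.17 (adjusted p = 0.000163, 0.000164 to 0.00640). Fam3c, a secreted protein likewise named after the fact, gave exons of 18.1 and 18.1 CPM at 90 min and 30.6 and 25.6 CPM at 240 min. Neither 90 min library reached a 240 min one (0.63 ± 0.15; adjusted p = 0.0447, 0.0299 to 0.187). Its introns fell from 40.2 and 41.4 to 11.9 and 9.06 CPM (-1.96 ± 0.25; adjusted p = 0.000960, 6.48e-05 to 0.0168). Ddc, which makes dopamine and serotonin, gave exons of 9.48 and 11.5 CPM in Hypox, 17.4 and 25.6 after 30 min, 19.8 and 18.7 after 90 min and then 50.2 and 35.7 after 240 min. Without overlap, the 240 min pair was the higher (1.14 ± 0.20; adjusted p = 0.0141, 0.00760 to 0.101). Introns of Ddc gave 16.02 and 21.1 CPM in Hypox, 77.7 and 163 after 30 min, 112 and 94.8 after 90 min and then 123 and 94.5 after 240 min, above Hypox in all 6 libraries with GH. Alas1, which starts heme synthesis, gave 33.6 and 20.9 CPM in Hypox, 45.6 and 30.3 after 30 min, 32.1 and 56.0 after 90 min and then 98.3 and 137 after 240 min. Its 90 min pair overlapped the Hypox pair, and it was not called at 90 min against Hypox. Levels were higher in both 240 min libraries (1.45 ± 0.30; adjusted p = 0.0252, 0.0129 to 0.155). Introns of the 10 genes were called higher in 1 from 90 to 240 min (Grm8) and lower in 2 (Fam3c and Prpf6), and in 7 they had been called higher at 90 min.

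Ribosome production genes were spread over the late and continued rises. Of 36 genes of that list 11 rose and none fell in exons (Ddx21, Tsr1, Bysl, Wdr43, Nolc1, Polr1e, Nop58, Gnl3, Nop2, Polr1a and Heatr1), with a median of 0.602 and 35 positive fold changes. In introns none of 35 was called by limma or limma-voom (5 higher and 1 lower at an unadjusted p under 0.05), and the median was 0.0322 from 90 to 240 min against 0.661 at 90 min over Hypox. Ddx21, a nucleolar helicase, gave exons of 11.4 and 10.4 CPM in Hypox, 11.8 and 10.1 after 30 min, 14.3 and 11.6 after 90 min and then 24.8 and 33.9 after 240 min. Each 240 min library exceeded both earlier ones (1.16 ± 0.17; adjusted p = 0.00677, 0.00598 to 0.0670). Introns of Ddx21 gave 2.15 and 1.39 CPM in Hypox, 3.36 and 2.15 after 30 min, 5.92 and 4.42 after 90 min and then 5.47 and 4.49 after 240 min. Exons were high at 240 min alone, and introns were high at 90 min already. Nop58, a core protein of box C/D snoRNPs, gave exons of 5.89 and 5.22 CPM in Hypox, 5.78 and 7.63 after 30 min, 12.7 and 11.5 after 90 min and then 19.3 and 20.9 after 240 min. The increase separated the pairs (0.73 ± 0.16; adjusted p = 0.0288, 0.0205 to 0.175). Gtpbp4, needed for the large ribosomal subunit, gave exons of 8.28 and 8.24 CPM in Hypox, 9.86 and 11.2 after 30 min, 14.3 and 15.3 after 90 min and then 26.4 and 29.3 after 240 min. This was a rise without overlap (0.91 ± 0.13; adjusted p = 0.00566, 0.00374 to 0.0498). Introns of Gtpbp4 gave 13.8 and 12.7 CPM at 90 min and 11.5 and 7.57 CPM at 240 min (-0.50 ± 0.22). The exonic count of the list ranged from 0 to 10 when a library was left out, with medians between 0.515 and 0.71.

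Exons and introns could be compared directly in 9645 genes. The exonic change exceeded the intronic one in 486 and fell short of it in 577, against 4.34% and 5.37% of all 11489 genes so tested. Introns rose too in 43.7% of the exonic rises and fell too in 34.1% of the exonic falls, while 486 genes rose and 560 fell in introns alone. In 14 genes exons fell and introns rose, and in 4, Atxn1, Fam3c, Prpf6 and Thrb, exons rose and introns fell. Atxn1, a nuclear repressor picked out after its values were seen, gave exons of 14.4 and 15.2 CPM in Hypox, 12.8 and 19.4 after 30 min, 15.9 and 17.4 after 90 min and then 46.4 and 35.5 after 240 min. Introns of Atxn1 gave 106 and 128 CPM in Hypox, 192 and 442 after 30 min, 452 and 502 after 90 min and then 131 and 154 after 240 min. Its introns had peaked and returned while its exons rose only at the last time (3.03 ± 0.22 for the difference; adjusted p = 1.42e-06, 1.23e-06 to 0.00159). Sorted like the exons, a step added after the values were seen, 276 genes had an early intronic rise that was shut off, of which 215 were called higher at 90 min against Hypox and 201 ended within 1.5-fold of Hypox. In 26 of them exons fell as well. A further 249 had an early intronic fall that was reversed, 183 of them called lower at 90 min and 183 within 1.5-fold of Hypox at the end. In 30 of these exons rose as well, and in 12 they fell.

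**Figure D3:**
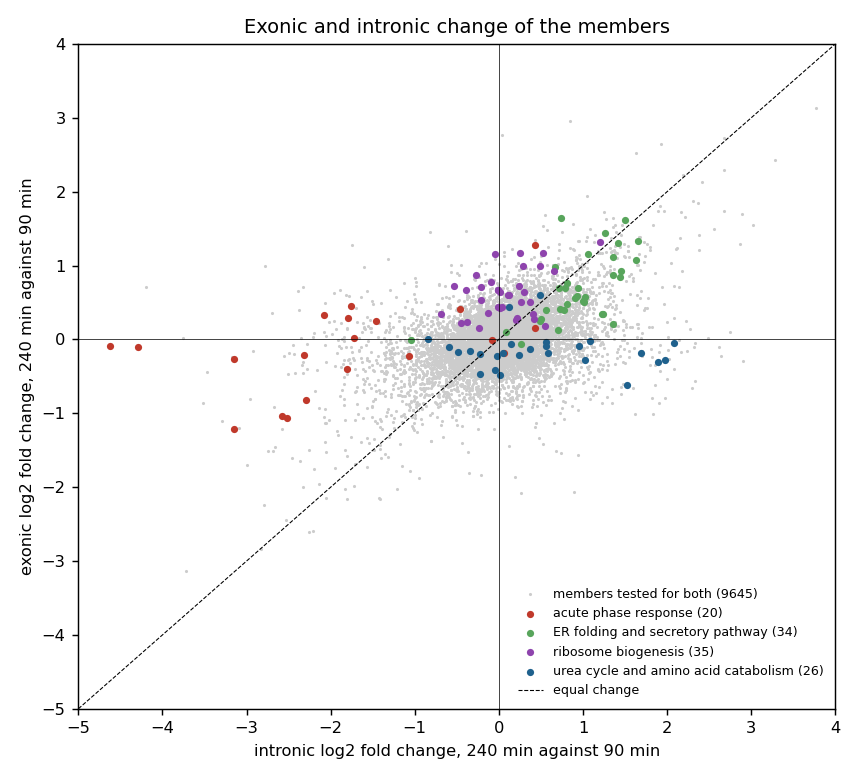
Exonic (vertical) against intronic (horizontal) log2 fold change from 90 to 240 min for the 9645 genes tested for both, with 4 gene lists coloured and a dashed line of equal change. Acute phase genes lie far to the left with exons near 0, ribosome biogenesis genes lie above 0 with introns near 0, urea cycle genes spread to the right with exons near or below 0, and ER genes lie along the line at upper right.

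The acute phase response, the set of plasma proteins that liver makes in inflammation, changed in introns with little change in exons. Of 20 acute phase genes 14 fell and none rose in introns, with a median log2 fold change of -1.8, while in exons 2 of 22 fell (Mt1 and Lbp), none rose and the median was -0.0509. Leaving out a library gave 10 to 15 intronic calls. Saa1, serum amyloid A, gave introns of 33.2 and 34.8 CPM in Hypox, 20.7 and 29.01 after 30 min, 54.5 and 14.2 after 90 min and then 1.17 and 1.495 after 240 min. Both 240 min libraries lay far below all 6 earlier ones (-4.29 ± 0.45; adjusted p = 0.000475, 1.04e-05 to 0.0105). Its exons gave 173 and 49.8 CPM in Hypox, 20.5 and 91.5 after 30 min, 93.9 and 61.3 after 90 min and then 66.7 and 74.6 after 240 min. They varied between pools and did not pass the test (-0.10 ± 0.64; adjusted p = 0.948, 0.802 to 0.992). The Saa genes are close copies and their reads may be shared. Fgb, the beta chain of fibrinogen, gave introns of 183 and 243 CPM in Hypox, 343 and 414 after 30 min, 366 and 285 after 90 min and then 81.7 and 71.0 after 240 min. The decrease separated the pairs (-2.08 ± 0.22; adjusted p = 0.000475, 0.000114 to 0.0104). Exons of Fgb gave 1492 and 1076 CPM in Hypox, 945 and 1569 after 30 min, 1484 and 1563 after 90 min and then 2013 and 1818 after 240 min (0.33 ± 0.24). Hp, which binds free hemoglobin, had introns at 62.9 and 29.7 CPM at 90 min and 10.6 and 6.93 at 240 min (-2.32 ± 0.33; adjusted p = 0.00162, 0.000664 to 0.0268). Hpx, which binds free heme, had them at 173 and 111 CPM and 42.1 and 41.5 (-1.73 ± 0.23; adjusted p = 0.00128, 0.000527 to 0.0196). Fgb, Hp and Hpx were named after their values were seen.

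Lbp, which binds lipopolysaccharide, fell in both readouts, with exons of 41.5 and 30.4 CPM at 90 min and 15.2 and 15.2 CPM at 240 min. This was a fall without overlap (-1.22 ± 0.26; adjusted p = 0.0268, 0.00489 to 0.163). Introns of Lbp gave 57.1 and 25.0 CPM at 90 min and 3.01 and 5.76 CPM at 240 min. Both late values were the lower (-3.15 ± 0.67; adjusted p = 0.0125, 0.000643 to 0.112). Prg4, a secreted lubricating glycoprotein, gave introns of 50.6 and 36.2 CPM at 90 min and 2.94 and 4.85 CPM at 240 min. Later libraries lay below both earlier ones (-3.47 ± 0.39; adjusted p = 0.000528, 2.85e-05 to 0.0122). Exons of Prg4 gave 56.2 and 31.0 CPM at 90 min and 26.5 and 35.3 CPM at 240 min (-0.45 ± 0.41). Igtp, an interferon-induced GTPase, gave introns of 1.76 and 3.40 CPM in Hypox, 8.19 and 6.90 after 30 min, 15.4 and 7.58 after 90 min and then 1.51 and 0.816 after 240 min. Neither 240 min library reached a 90 min one (-3.17 ± 0.38; adjusted p = 0.000790, 0.000292 to 0.0146). The 90 min peak was gone at 240 min in introns, while exons gave 31.6 and 18.5 CPM at 90 min and 28.3 and 14.9 CPM at 240 min (-0.24 ± 0.42). Of 28 complement and coagulation genes 9 fell and 2 rose (Mbl2 and F11) in introns and 1 fell (Klkb1) in exons, with medians of -0.412 and -0.229. Of 14 interferon-stimulated genes 4 fell in introns (Gbp2, Mx2 and Gbp3 among them). The shares over all genes in the comparison were 6.64% higher and 6.86% lower in introns, and 3.35% and 2.92% in exons. Slc22a27, an organic anion transporter from a family of close copies, had intronic levels that ran from 39.0 and 30.7 to 4.81 and 1.77 CPM (-3.52 ± 0.38; adjusted p = 0.000475, 0.000136 to 0.00668). Ces2b, a carboxylesterase with close copies, ran from 3.79 and 2.99 to 0.257 and 0 CPM in introns, beside exons of 5.64 and 4.18 CPM at 90 min and 9.58 and 6.68 CPM at 240 min.

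**Figure D4:**
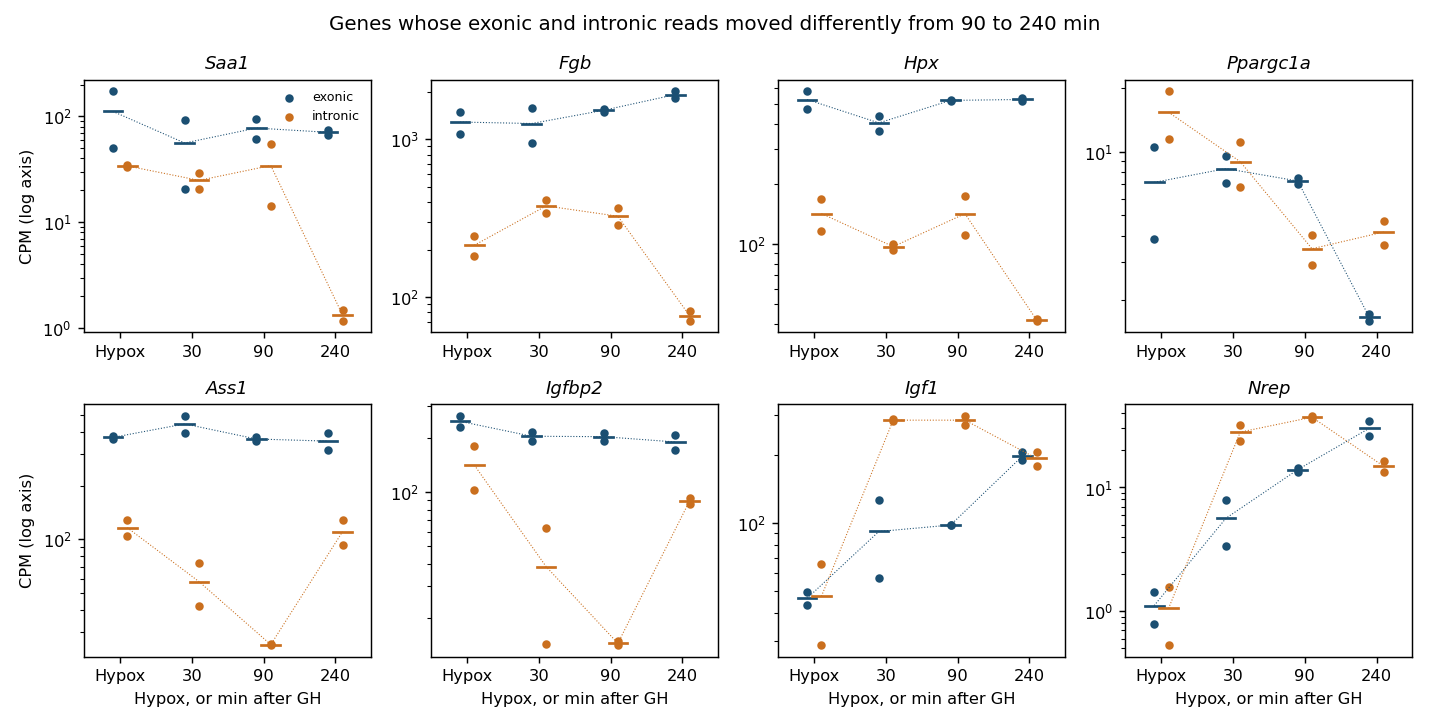
Exonic (blue) and intronic (orange) CPM on a log axis for 8 genes in Hypox and at 30, 90 and 240 min, with a point for each library, a bar for the mean of the pair and dotted lines joining the means. Introns of Saa1, Fgb and Hpx are lowest at 240 min while their exons are not, introns of Ass1 and Igfbp2 dip at 90 min and recover while their exons did not pass the test, and exons of Igf1 and Nrep are highest at 240 min after their introns have peaked.

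Introns rose from 90 to 240 min in a part of the genes of 3 metabolic lists. Of all genes in the comparison, 6.64% rose and 6.86% fell in introns. In the list of 19 gluconeogenic genes and FOXO targets introns rose in 7 (Sds, Slc2a2, Tat, Pck1, Slc37a4 and G6pc among them) and fell in 1 (Pcx), with a median of 0.237. The medians against Hypox were -0.938 at 90 min and -0.609 at 240 min. In exons none of them rose and 2 fell (Slc2a2 and Ppargc1a). In the list of 26 genes of the urea cycle and amino acid breakdown introns rose in 7 and fell in none, with a median of 0.307, and medians against Hypox of -0.876 at 90 min and -0.463 at 240 min. In fatty acid and triglyceride synthesis 6 of 22 rose in introns, with a median of 0.534. Of 30 fatty acid oxidation genes tested in introns 3 rose and 6 fell. Ass1, argininosuccinate synthase of the urea cycle, gave introns of 104 and 128 CPM in Hypox, 73.2 and 42.3 after 30 min, 25.3 and 25.7 after 90 min and then 92.7 and 128 after 240 min. Both 90 min libraries were far below Hypox, and the 240 min pair was back near it (2.09 ± 0.25; adjusted p = 0.000746, 8.30e-05 to 0.0144). Exons of Ass1 gave 382 and 364 CPM in Hypox, 493 and 395 after 30 min, 375 and 356 after 90 min and then 395 and 316 after 240 min (-0.048 ± 0.15). Pck1, the key enzyme of gluconeogenesis, gave introns of 58.4 and 69.7 CPM in Hypox, 9.70 and 5.43 after 30 min, 6.47 and 7.58 after 90 min and then 20.1 and 26.2 after 240 min. The return was partial (1.70 ± 0.25; adjusted p = 0.00199, 0.000220 to 0.0290). Ass1, Pck1 and G6pc were named after their values were seen.

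Pemt, which makes phosphatidylcholine, gave introns of 51.8 and 48.4 CPM in Hypox, 34.7 and 18.3 after 30 min, 12.7 and 8.90 after 90 min and then 65.4 and 68.5 after 240 min. Both 240 min values were the higher (2.64 ± 0.26; adjusted p = 0.000390, 2.85e-05 to 0.00902). Exons of Pemt gave 33.2 and 31.3 CPM at 90 min and 29.5 and 25.8 CPM at 240 min (-0.22 ± 0.12). Igfbp2, a binding protein of insulin-like growth factors, gave introns of 103 and 179.9 CPM in Hypox, 63.0 and 14.3 after 30 min, 14.1 and 14.9 after 90 min and then 86.5 and 92.3 after 240 min. The later pair lay above the earlier one (2.62 ± 0.51; adjusted p = 0.00820, 4.19e-05 to 0.0675). Its relative Igfbp1 gave introns of 0.489 and 0.179 CPM at 90 min and 0.514 and 0.363 CPM at 240 min (0.39 ± 0.38). Atoh8, a helix-loop-helix factor, gave introns of 7.96 and 9.58 CPM in Hypox, 6.08 and 2.49 after 30 min, 1.496 and 1.79 after 90 min and then 12.4 and 13.1 after 240 min. Neither 90 min library reached a 240 min one (2.89 ± 0.32; adjusted p = 0.000528, 2.85e-05 to 0.0117). Pcp4l1, a small protein of unclear role, gave introns of 17.1 and 15.8 CPM in Hypox, 8.68 and 2.26 after 30 min, 3.79 and 2.45 after 90 min and then 19.7 and 27.8 after 240 min. Without overlap, the 240 min pair was the higher (2.90 ± 0.46; adjusted p = 0.00315, 5.04e-05 to 0.0428). Gldc, the glycine decarboxylase, gave introns of 9.41 and 11.97 CPM in Hypox, 12.04 and 4.19 after 30 min, 2.87 and 3.05 after 90 min and then 11.2 and 19.7 after 240 min. Levels were higher in both 240 min libraries (2.29 ± 0.40; adjusted p = 0.00487, 0.000263 to 0.0604). Its exons gave 46.0 and 52.3 CPM at 90 min and 35.2 and 27.4 CPM at 240 min (-0.66 ± 0.18; adjusted p = 0.0611, 0.0404 to 0.283), so that the exonic minus intronic change was -2.95 ± 0.43 (adjusted p = 0.000419, 2.08e-05 to 0.0269). Hnf4a, a master factor of hepatocytes, gave introns of 70.6 and 54.7 CPM in Hypox, 34.5 and 31.8 after 30 min, 37.1 and 33.1 after 90 min and then 94.8 and 83.3 after 240 min. Each 240 min library exceeded both earlier ones (1.34 ± 0.17; adjusted p = 0.000960, 0.000507 to 0.0148). Exons of Hnf4a gave 123 and 122 CPM at 90 min and 174 and 159 CPM at 240 min (0.44 ± 0.13; adjusted p = 0.0763, 0.0682 to 0.278). In Pemt, Igfbp2, Atoh8, Pcp4l1, Gldc and Hnf4a the 90 min libraries were below all Hypox and 240 min libraries in introns.

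In some genes the recovery of introns coincided with a fall of exons. Slc2a2, the glucose transporter GLUT2, gave introns of 27.4 and 48.0 CPM in Hypox, 14.4 and 11.5 after 30 min, 6.41 and 6.93 after 90 min and then 24.3 and 23.2 after 240 min. The increase separated the pairs (1.82 ± 0.23; adjusted p = 0.00102, 0.000129 to 0.0160). Its exons gave 104 and 135 CPM in Hypox, 116 and 111 after 30 min, 106 and 106 after 90 min and then 58.1 and 65.1 after 240 min. The 240 min pair was lower than all 6 others (-0.79 ± 0.13; adjusted p = 0.0120, 0.00866 to 0.0873). Npc1, which exports cholesterol from lysosomes, gave introns of 31.9 and 35.1 CPM in Hypox, 11.6 and 7.52 after 30 min, 5.62 and 9.14 after 90 min and then 28.6 and 23.2 after 240 min. This was a rise without overlap (1.83 ± 0.25; adjusted p = 0.00139, 0.000489 to 0.0230). Exons of Npc1 gave 78.6 and 91.8 CPM in Hypox, 81.2 and 66.6 after 30 min, 67.5 and 77.9 after 90 min and then 37.7 and 34.0 after 240 min. Without overlap, the late pair was the lower (-1.02 ± 0.14; adjusted p = 0.00530, 0.00418 to 0.0559). The exonic minus intronic change was -2.61 ± 0.18 in Slc2a2 and -2.84 ± 0.19 in Npc1. Gpam, which begins triglyceride synthesis, changed less, with exons of 48.2 and 41.9 CPM at 90 min and 32 and 32.1 CPM at 240 min. Lower levels marked both 240 min libraries (-0.49 ± 0.11; adjusted p = 0.0352, 0.0337 to 0.208). Introns of Gpam gave 12.95 and 10.03 CPM at 90 min and 19.7 and 26.8 CPM at 240 min. Both 240 min values were the higher (1.01 ± 0.20; adjusted p = 0.00822, 0.00637 to 0.0825).

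In Igf1, Nrep and Ghr the exonic and intronic changes differed by the test, while in Cish and Bcl6 both readouts had changes of the same sign. Igf1, the main growth factor that liver makes under GH, gave introns of 28.7 and 65.9 CPM in Hypox, 281 and 289 after 30 min, 272 and 298 after 90 min and then 207 and 179 after 240 min. Its exons gave 43.1 and 49.5 CPM in Hypox, 57.2 and 126 after 30 min, 97.4 and 98.1 after 90 min and then 205 and 189.5 after 240 min. Introns were high from 30 min on, and exons were highest at 240 min, with both 240 min libraries above both at 90 min. The exonic log2 fold change of 1.01 ± 0.27 did not pass the test (adjusted p = 0.0616, 0.00259 to 0.224), nor did the intronic one of -0.57 ± 0.31, while their difference of 1.58 ± 0.33 did (adjusted p = 0.00577, 0.000206 to 0.0766). Nrep, an early GH-responsive gene in these livers, gave introns of 0.530 and 1.58 CPM in Hypox, 23.8 and 32.2 after 30 min, 36.0 and 37.9 after 90 min and then 16.3 and 13.3 after 240 min. Each late library was under both earlier ones (-1.32 ± 0.35; adjusted p = 0.0347, 0.000600 to 0.181). Exons of Nrep gave 1.44 and 0.786 CPM in Hypox, 3.38 and 7.90 after 30 min, 13.4 and 14.5 after 90 min and then 34.3 and 26.0 after 240 min (1.10 ± 0.35; adjusted p = 0.106, 0.00716 to 0.299). The difference between its readouts was 2.42 ± 0.46 (adjusted p = 0.00343, 3.68e-06 to 0.0697). Socs2, the inhibitor that limits GH signalling, gave introns of 0.195 and 0.347 CPM in Hypox, 2.19 and 6.39 after 30 min, 3.08 and 3.64 after 90 min and then 0.918 and 0.816 after 240 min. The decrease separated the pairs (-1.84 ± 0.43; adjusted p = 0.0187, 0.00148 to 0.112). Its exons overlapped between the times, with 15.5 and 21.7 CPM at 90 min and 25.5 and 12.6 CPM at 240 min. The GH receptor gene Ghr itself gave introns of 633 and 1137 CPM in Hypox, 1139 and 2043 after 30 min, 2421 and 3030.4 after 90 min and then 1366 and 1116 after 240 min (-1.13 ± 0.40; adjusted p = 0.0976, 0.0174 to 0.354). Its exons gave 138 and 157 CPM in Hypox, 146 and 168 after 30 min, 164 and 174 after 90 min and then 208 and 205 after 240 min (0.29 ± 0.12; adjusted p = 0.204, 0.158 to 0.498), and the difference between the readouts passed the test (1.42 ± 0.27; adjusted p = 0.00307, 0.000931 to 0.0540). Prlr, the related prolactin receptor, gave exons of 37.9 and 44.2 CPM in Hypox, 47.2 and 44.8 after 30 min, 67.3 and 54.1 after 90 min and then 97.1 and 80.3 after 240 min (0.55 ± 0.14; adjusted p = 0.0567, 0.0528 to 0.315). Igfals, which carries IGF1 in blood, gave 11.5 and 12.1 CPM at 90 min and 21.3 and 19.3 CPM at 240 min (0.78 ± 0.23; adjusted p = 0.0866, 0.0167 to 0.266). Onecut1, the liver factor HNF6, gave 29.8 and 33.1 CPM at 90 min and 40.2 and 37.2 CPM at 240 min (0.30 ± 0.21; adjusted p = 0.449, 0.215 to 0.730). Introns of Onecut1 gave 107 and 134 CPM at 90 min and 75.1 and 67.8 CPM at 240 min (-0.74 ± 0.23; adjusted p = 0.0595, 0.0146 to 0.305). Foxa1, a pioneer factor of liver, gave 4.17 and 6.57 CPM in Hypox, 10.96 and 14.6 after 30 min, 13.99 and 18.7 after 90 min and then 9.54 and 11.6 after 240 min (-0.62 ± 0.23; adjusted p = 0.161, 0.0853 to 0.531), and its relative Foxa2 changed by -0.17 ± 0.14 (adjusted p = 0.526, 0.467 to 0.903).

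Of 19 genes of the GH and STAT5 list, 6 fell (Bcl6, Socs3, Pim3, Pim1, Socs1 and Stat5b) and 1, Trim24, rose in exons, with a median of -0.565. In introns 6 of 18 fell (Bcl6, Socs3, Tox, Stat5a, Stat5b and Socs2), none rose and the median was -0.959. Leaving out a library gave 2 to 7 falls in exons and 1 to 9 in introns.

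**Figure D5:**
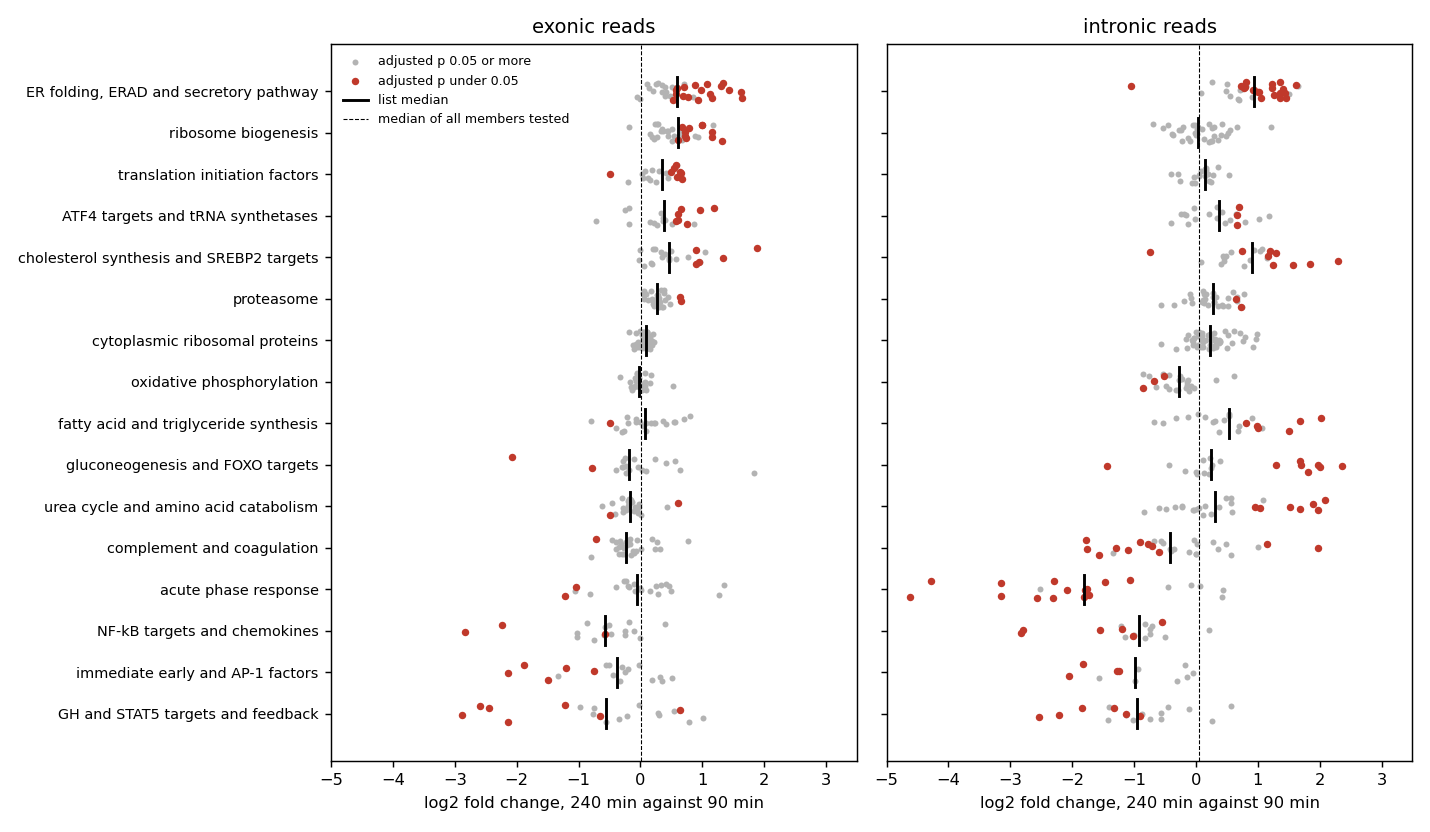
Log2 fold change from 90 to 240 min of the genes of 16 lists, for exonic reads (left) and intronic reads (right), with red points for genes with an adjusted p under 0.05, a bar for the list median and a dashed line for the median of all genes in the comparison. ER folding lies right of the line in both panels, ribosome biogenesis does so in exons, the acute phase list lies far left in introns with a median of -1.8, and the GH and STAT5 list lies left in both with medians of -0.565 and -0.959.

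Counts of further lists are given beside the shares over all genes in the comparison. Of all these genes 3.35% rose and 2.92% fell in exons, and 6.64% rose and 6.86% fell in introns. Of 20 bile acid genes 2 rose (Nr0b2 and Slc10a1) and 3 fell (Abcg5, Abcg8 and Abcc3) in exons, and of 26 liver transcription factors 4 rose (Nr0b2, Klf10, Tbx3 and Prox1) and 2 fell (Nr1i3 and Cebpd). Of 25 oxidative phosphorylation genes none was called in exons by limma or limma-voom (1 higher and 1 lower at an unadjusted p under 0.05), with a median of -0.0262, and 3 fell in introns (Cox6c, Atp5b and Atp5a1). Of 24 male-biased liver genes 1 rose (Cyp4a12b) and 1 fell (Bcl6) in exons, and 3 rose and 4 fell in introns. Of 27 female-biased genes 1 rose (Trim24) and 1 fell (Abcd2) in exons, and 4 rose and 10 fell in introns. Many of these sex-biased genes belong to families of close copies, and the counts may include shared reads. Of 31 genes of fatty acid oxidation 1 rose in exons (Cyp4a12b). Among cell type lists, 1 of 12 sinusoidal endothelial markers fell (Stab2, with 56.9 and 61.1 CPM at 90 min and 36.9 and 45.1 CPM at 240 min), and none of 9 hepatocyte and 11 stellate cell markers was called in exons by limma. Each of these lists had 1 gene higher and 1 lower at an unadjusted p under 0.05, and limma-voom called 1 hepatocyte marker lower and no stellate cell marker.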

How the data were processed

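Total RNA depleted of ribosomal RNA was sequenced from 8 liver pools, 2 for each of Hypox and GH 30, 90 and 240 min. The authors deposited 1 table with group mean FPKM over gene bodies (exons) and over introns. The same table holds the authors' adjusted p-values and fold ratios of each time against Hypox, which were read but not used for any result, and it gives no comparison of 240 with 90 min. TopHat2, featureCounts and edgeR and the build mm9 are named in the submitters' processing notes. Counting strand, annotation and treatment of multi-mapping reads are not given.

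Because the FPKM values are means over libraries of unlike depth, the whole reads of each library could be recovered from the deposited FPKM: 18359 of 18359 gene body values and 14441 of 14441 intronic values came out whole. With the library totals moved by 1000 reads, 3 of 500 values did. Recovery gives the deeper and the shallower library of a group, not the pool numbers. Totals ranged from 15935303 to 34452570 reads, and this number of reads limits the precision of low genes.

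Reads were scaled (size factors 0.916 to 1.05 for exons), and log2 CPM were fitted over all 4 groups with limma 3.58.1 in R 4.3.3, and p was adjusted by the Benjamini-Hochberg method across every gene fitted. A test of single values by exact permutation could not go below p = 0.333 with 2 pools against 2. Exonic minus intronic log2 values were fitted likewise. The fits were tested on simulated data. Motifs were searched in RefSeq promoter windows with Python 3.11.15. Genes were named by rule: the called genes of largest change in each direction (15 exonic, 8 intronic and 5 for the difference), up to 8 in each class, up to 4 called genes in each list (the lowest p), the 3 largest non-coding ones, and a set of GH targets. Those outside the rule are marked as chosen after their values were seen, as are called genes given by name alone. Some genes that the rule names are not reported here. The members, lists and classes were chosen with earlier results of these data known. Alternatives were limma-voom, another pseudocount, scaling and count filter, the 2 compared groups alone, other limits and each library left out.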

Additional observations from a re-analysis of the deposited data

How the results depend on the processing

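Of the 353 exonic rises and 308 falls, leaving out a library gave 52 to 322 and 45 to 288. The intronic counts of 641 and 662 ranged from 212 to 704 and from 304 to 741, and the exonic minus intronic counts of 486 and 577 from 263 to 498 and from 278 to 569. With no filter on low counts the last pair was 288 and 333. With a limit of 2-fold in place of 1.5-fold, the shut-off class went from 48 to 24 genes, continued falls from 7 to 1, reversed falls from 45 to 18 and continued rises from 10 to 3. With library totals as the only scaling, late falls went from 241 to 157 and continued falls to 4, and the share of rises among exonic calls went from 53.4% to 62.5%. Without a library, the classes held 19 to 63 genes (early rise, shut off), 23 to 225 (late fall), 1 to 12 (continued fall), 11 to 50 (early fall, reversed), 38 to 241 (late rise) and 2 to 21 (continued rise). Gmppb was the one named gene whose sign turned with a call: its exonic minus intronic change was -0.15 (adjusted p = 0.90) and 0.78 with a pseudocount of 1 (adjusted p = 0.0459). The cause was not tested in these cases, except that a left-out library removes samples.

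Of 123 named exonic calls 28 held under every alternative, and 92 held under all alternatives other than leaving a library out. Those alternatives include the fit of the 90 and 240 min groups alone. Without the shallower 90 min library 84 were lost, without the deeper one 80, without the shallower 240 min library 72 and without the deeper one 42. A group left with 1 library is assumed to vary like the others. For introns 31 of 67 held under every alternative, and for the difference 30 of 51. No paired analysis was possible because the deposited columns are group means that carry no pool numbers, and the recovered libraries are known only as the deeper and the shallower. Counts of genes with few reads are limited by the 15935303 reads of the shallower 90 min library.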
